A study of Mus musculus with 8 samples.

Results

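Alternative activation is the state that macrophages enter when interleukin 4 or interleukin 13 binds receptors built around the chain Il4ra and activates the transcription factor STAT6. In mice this program is read from secreted proteins such as the resistin-like Retnla and the chitinase-like Chil3, and from the enzyme Arg1, which turns arginine into ornithine and urea. Macrophages of lean adipose tissue are known for expressing part of it. The 9 genes described here are Il4ra, Cd200r1, Socs2, Klf4, Retnla, Chil3, Ear2, Arg1 and Tgm2. They were chosen by name, each matched by Ensembl identifier to 1 of the 56748 rows of the count table, and all 9 passed the filter on low counts that left 16780 genes.

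The mice were wild-type females, of a strain and age that the labels do not give, and RNA was taken from cells of their inguinal fat. In the Aldara group (4 libraries), a dose of about 62.5 mg of Aldara, a cream with 5% of the Toll-like receptor 7 agonist imiquimod, was put on shaved back skin on 3 days in a row. In the Vehicle group (4 libraries) the same volume of a control cream was used, a mixture of Boots Aqueous Cream with 10% Vaseline Lanette Cream. Mice were killed 24 h after the last application, cells were enriched with beads against F4/80, and each library pooled 6 fat pads with about 30000 cells. Preparations were over 90% F4/80+ CD64+ by the labels. Whether the pools shared animals is not stated, and p-values measure only the spread between pools, which may be technical. Which constituent of the Aldara cream an effect belongs to cannot be told apart here.

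Total counts lay between 19537607 and 24340674 in Aldara libraries and between 21874780 and 34471508 in Vehicle libraries. Over all tested genes, 10.8% passed an adjusted p of 0.05 in edgeR's quasi-likelihood test, with 1171 rising (6.98%) and 647 falling (3.86%). Under upper-quartile scaling the split was 979 rising and 990 falling. A panel of 21 macrophage genes, among them Ptprc and Csf1r, had a geometric mean of 113.5 to 304.6 CPM (counts per-million of the TMM-scaled library total) in Aldara libraries and 50.2 to 87.3 CPM in Vehicle libraries. Of these 21 genes 17 rose and 0 fell, with a median log2 fold change of 1.70, and with the replicate number as a block 20 rose. The gene not called with the block was Fcgr1, which encodes CD64 (log2 fold change 0.32, adjusted p = 0.474). Itgb2, also of the panel, rose by 2.70 with the block (adjusted p = 0.00194). Both were picked after their values were seen. Ptprc (CD45) measured 151.1 ± 62.8 CPM in Aldara and 41.6 ± 6.5 CPM in Vehicle (adjusted p = 0.0064), and Csf1r 542.9 ± 210.9 CPM in Aldara and 273.5 ± 70.4 CPM in Vehicle (adjusted p = 0.0648, and 0.00114 with the replicate block). Defining epithelial markers were abundant throughout: 8 of them summed to between 11586 and 14867 CPM in Aldara libraries and between 11798 and 16241 CPM in Vehicle libraries, and edgeR called 0 of the 8 (1 at an unadjusted p under 0.05). With the replicate block 2 of the 8 passed in opposite directions, Krt19 at −0.45 (adjusted p = 0.0118) and Cldn4 at 0.40 (adjusted p = 0.0245), and Krt19 also passed under upper-quartile scaling (−0.51, adjusted p = 0.0357). These levels go against a pure macrophage preparation, and from which cells a member's reads came was not tested.

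Aldara libraries held more Cd200r1 and Chil3 and less Socs2, Arg1 and Tgm2 than Vehicle libraries, while Il4ra, Klf4, Retnla and Ear2 did not pass the test. That makes 2 members risen and 3 fallen of 9, beside the 10.8% of all tested genes that were called. The median log2 fold change of the 9 was −0.70, against 0.006 for all tested genes. Groups did not overlap for 5 members, beside 17.8% of all tested genes. The replicate numbers of the labels were taken to pair the libraries, from weak correlations in these same data that are given under the processing. The pairing is thus inferred. With the replicate number as a block Retnla and Ear2 also fell, which gives 2 risen and 5 fallen. With that block 15.4% of all tested genes were called (9.21% rising, 6.14% falling). The 9 genes were picked with earlier results of these data known, so these counts describe them and no more.

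**Figure D1:**
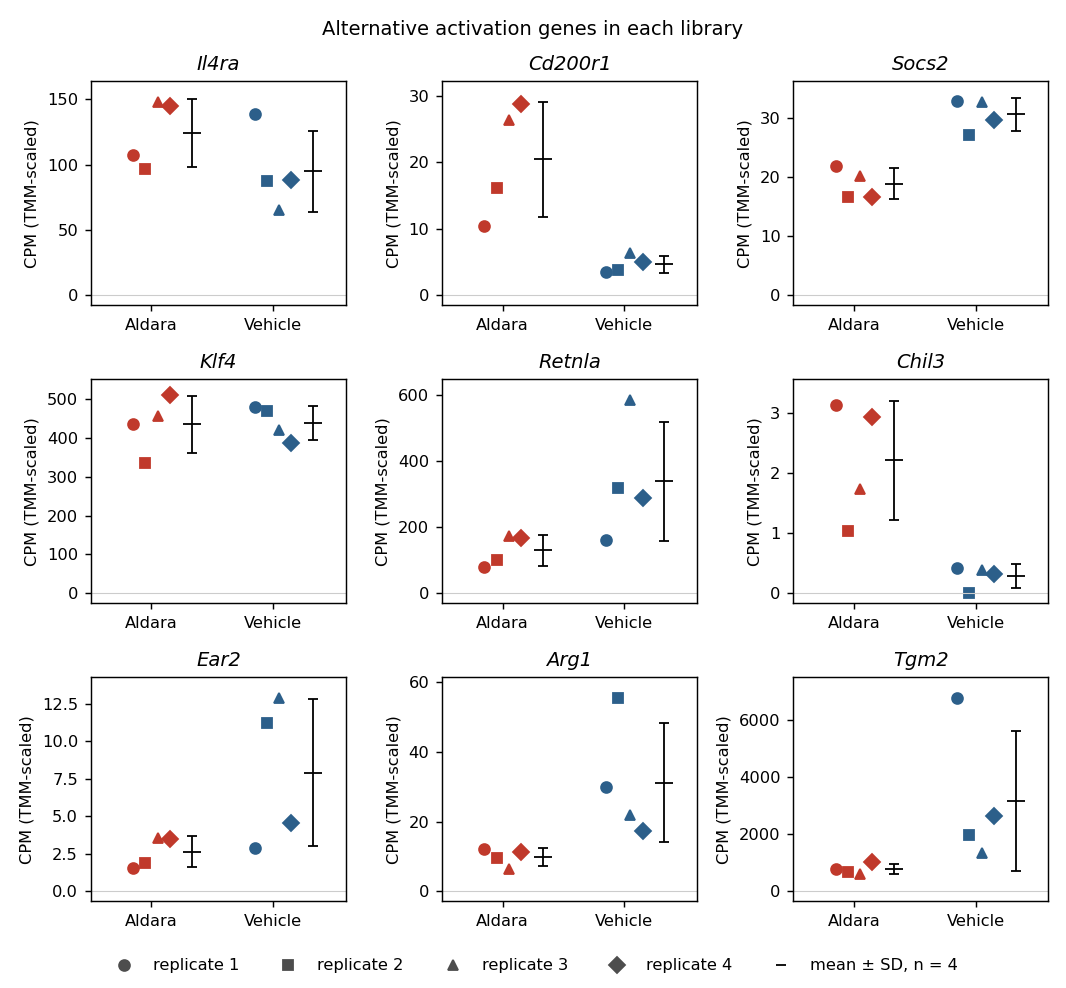
Level of each gene in each library as TMM-scaled CPM (linear axes), Aldara in red and Vehicle in blue, symbols for the replicate number, black bars for mean ± SD of 4 libraries. Cd200r1 and Chil3 are higher in all 4 Aldara libraries, Socs2, Arg1 and Tgm2 lower, and the groups overlap for Il4ra, Klf4, Retnla and Ear2.

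Chil3 and Retnla are the secreted proteins by which the program is most often recognised in mice, so their promoters are shown. Chil3 rose here, while Retnla had a lower mean in Aldara that missed the threshold. Promoter sequences from RefSeq (GRCm38.p6, from 250 bases before to 50 after the annotated start) were matched for 5 of the 9 members: Chil3, Retnla, Il4ra, Klf4 and Ear2. They were searched on both strands for TTC and GAA with 4 letters between them, the spacing that STAT6 prefers. A search for TTC and GAA with 3 letters between them, a spacing that STAT proteins bind more widely, was added after the promoters had been seen. Neither spacing is taken as exclusive to a STAT protein. Capitals mark the match of either motif, and matches do not overlap.
Chil3 promoter, chr3:106167515-106167814, minus strand: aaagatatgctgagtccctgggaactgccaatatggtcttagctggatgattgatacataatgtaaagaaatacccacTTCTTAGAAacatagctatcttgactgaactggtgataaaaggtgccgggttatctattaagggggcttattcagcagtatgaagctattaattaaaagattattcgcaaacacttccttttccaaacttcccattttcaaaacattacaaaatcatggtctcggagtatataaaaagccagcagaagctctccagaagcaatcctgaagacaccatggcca
Retnla promoter, chr16:48842359-48842658, plus strand: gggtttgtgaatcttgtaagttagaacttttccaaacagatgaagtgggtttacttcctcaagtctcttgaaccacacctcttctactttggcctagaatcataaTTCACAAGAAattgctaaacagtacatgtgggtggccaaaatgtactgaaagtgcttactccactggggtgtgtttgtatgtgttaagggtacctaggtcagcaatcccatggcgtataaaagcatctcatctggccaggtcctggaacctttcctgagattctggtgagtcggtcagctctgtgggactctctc
In Retnla the match TTCACAAGAA, with 4 letters between, starts at position −145 relative to the annotated start. Chil3 holds 0 matches of that spacing, and its match TTCTTAGAA, with 3 letters between, starts at position −172. Of all 32851 promoters in the table, 6.95% hold the motif with 4 letters between and 8.3% that with 3. The promoters of Il4ra, Klf4 and Ear2 hold neither motif in this window. Retnla also holds TATAAA at position −30, and Chil3 holds it at position −3, unlike the place of a TATA box, and which start of Chil3 these cells use was not tested. TATAAA was found in 13.6% of all promoters. Base composition set the members apart as well, with 38.7% G and C in Chil3, 44.7% in Retnla and 48% in Ear2, against 62% in Il4ra and 74.3% in Klf4, beside a median of 52.7% over all promoters. A string match is a description of the sequence and says nothing of binding in these cells.

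Il4ra, the chain shared by the receptors for interleukin 4 and interleukin 13, is the receptor chain at the start of the program, and it did not pass the test. It measured 107.3, 96.8, 147.8 and 145 CPM in Aldara libraries 1 to 4, against 138.5, 87.2, 65.6 and 88 CPM in Vehicle libraries 1 to 4. The groups overlapped, with Vehicle replicate 1 above Aldara replicates 1 and 2. Means were 124.2 ± 26 CPM in Aldara and 94.8 ± 30.9 CPM in Vehicle (SD, n = 4 each), a log2 fold change of 0.39 (SE 0.23, adjusted p = 0.332). Without the replicates numbered 1 of both groups, a setting chosen after the data were seen, the log2 fold change was 0.69 and passed (adjusted p = 0.0344). Il4ra shares 571 exonic bases with the predicted gene Gm44876 on the opposite strand, which had 6 counts in all. Reads there cannot be told apart without strand.

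Cd200r1, an inhibitory receptor of myeloid cells for the membrane protein CD200, rose with groups that did not overlap. Its level was 10.4, 16.1, 26.4 and 28.8 CPM in the Aldara libraries, against 3.52, 3.79, 6.35 and 4.98 CPM in the Vehicle libraries. The Aldara libraries spread more than the Vehicle libraries, with Aldara replicates 3 and 4 highest. The log2 fold change was 2.12 (SE 0.33, adjusted p = 0.00627), a 4.33-fold higher level in Aldara, and it was called without any 1 library (highest adjusted p = 0.0239). The ligand gene Cd200 went the other way, at 162.6 ± 7.43 CPM in Aldara and 366.7 ± 59.8 CPM in Vehicle (log2 fold change −1.17, SE 0.12, adjusted p = 0.000853). Cd200r4, an activating receptor of the same family, measured 2.95 ± 1.67 CPM in Aldara and 1.16 ± 0.255 CPM in Vehicle and did not pass (adjusted p = 0.0709). Its transcripts share some 50-base windows with Cd200r1, 1.47% of the windows of the longest Cd200r1 transcript.

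Socs2, a suppressor of cytokine signalling best known for restraining growth hormone signals, fell by a small and even amount. It measured 21.9, 16.7, 20.2 and 16.6 CPM in Aldara libraries, against 32.8, 27.1, 32.7 and 29.7 CPM in Vehicle libraries. The groups were apart and each was narrow. Its standard error was the smallest of the 9 members, with that of Klf4 close to it (0.12 and 0.13). The log2 fold change was −0.70 (SE 0.12, adjusted p = 0.00574), with a highest adjusted p of 0.0186 when any 1 library was left out. Of the 50-base windows of Socs2, 7.23% recur in the predicted genes Gm9847 and Gm8000. Klf4, a zinc-finger factor that works with STAT6 in mouse macrophages and is also made by epithelial cells, showed 435.8, 335.7, 455.2 and 511.1 CPM in Aldara libraries, against 478, 469.5, 419.4 and 386 CPM in Vehicle libraries. Aldara replicate 4 was the highest and Aldara replicate 2 the lowest of all 8, and the groups overlapped throughout. With a log2 fold change of −0.01 (SE 0.13, adjusted p = 0.967) no difference was detectable.

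Retnla, the secreted resistin-like molecule alpha, had a lower mean in Aldara that missed the threshold. Its values were 79.1, 101.5, 173.2 and 167.9 CPM in Aldara libraries, against 160.5, 319.3, 587.7 and 288.9 CPM in Vehicle libraries. Only Vehicle replicate 1 fell within the Aldara range, while the other Vehicle libraries lay above every Aldara library. Means were 130.4 ± 47.2 CPM in Aldara and 339.1 ± 179.4 CPM in Vehicle (SD, n = 4 each). The log2 fold change of −1.38 (SE 0.39) missed the threshold (adjusted p = 0.0545), and with the replicate block it was −1.31 and passed (adjusted p = 0.00228). Ear2, an eosinophil-associated ribonuclease of the mouse that macrophages also make, gave a like picture at a far lower level. It measured 1.58, 1.91, 3.54 and 3.51 CPM in Aldara libraries, against 2.91, 11.2, 12.9 and 4.56 CPM in Vehicle libraries. Here too Vehicle replicate 1 was the library within the Aldara range. The log2 fold change of Ear2 was −1.59 (SE 0.49, adjusted p = 0.0724), and −1.45 with the replicate block, where it passed (adjusted p = 0.0278).

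Markers of eosinophils were near the floor of detection in most libraries. The granule genes Epx and Prg2 did not exceed 0.0427 and 0.12 CPM in any Aldara library, or 0 and 0.113 CPM in any Vehicle library. The 5 eosinophil markers summed to between 0.512 and 1.19 CPM in Aldara and between 0.367 and 5.63 CPM in Vehicle, the upper value being nearly all Il5ra in Vehicle replicate 1 (5.58 CPM). Ccr3, a chemokine receptor on the same list, was higher in Aldara with groups that did not overlap, at 0.544 ± 0.283 CPM (49 counts) in Aldara and 0.065 ± 0.0547 CPM (8 counts) in Vehicle, and was too low to be tested. The part of eosinophils in the level of Ear2 was not tested. Of the family, Ear1, Ear6 and Ear14 had 0 counts in every library. Of the 50-base windows of Ear2, 41.5% recur in transcripts of other genes, mainly of its own family, so its reads cannot all be told apart from theirs and its level is uncertain. Retnla has 0 such windows.

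Chil3, the chitinase-like protein Ym1 that mouse macrophages secrete in response to interleukin 4, rose, on very low counts. Counts were 73, 26, 42 and 55 in Aldara libraries, against 9, 0, 14 and 10 in Vehicle libraries. In CPM these are 3.12, 1.04, 1.73 and 2.93 in Aldara and 0.422, 0, 0.395 and 0.321 in Vehicle. Each Aldara library exceeded each Vehicle library, but even the highest held few reads. The log2 fold change was 2.88 (SE 0.57, adjusted p = 0.0116), and it was called without any 1 library (highest adjusted p = 0.0372). Chil3 shares 29.4% of its 50-base windows with other genes, among them its copy Chil4, which had 0 counts in every library, so the level of Chil3 is uncertain. Markers of neutrophils, which also make Chil3 in mice, were higher in Aldara but low, with a sum over 6 genes of 0.797 to 1.69 CPM in Aldara and 0.0938 to 0.225 CPM in Vehicle and Ly6g at 0 in all libraries. Their part in the level of Chil3 was not tested.

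Arg1 fell in Aldara. It measured 12.1, 9.68, 6.34 and 11.3 CPM in Aldara libraries, against 29.9, 55.5, 21.9 and 17.3 CPM in Vehicle libraries. The Vehicle libraries spread widely, with replicate 2 highest, yet all stood above the 4 Aldara libraries. Means were 9.87 ± 2.56 CPM in Aldara and 31.2 ± 17 CPM in Vehicle, a log2 fold change of −1.66 (SE 0.36, adjusted p = 0.0214). That call was lost without Aldara replicate 2, 3 or 4 or without Vehicle replicate 1 (highest adjusted p = 0.0618). Tgm2, the tissue transglutaminase, which crosslinks proteins and marks alternatively activated macrophages in mouse and human, had the highest counts of all 9 members. It measured 790.4, 694.1, 597 and 1018 CPM in Aldara libraries, against 6790, 1971, 1339 and 2629 CPM in Vehicle libraries. Vehicle replicate 1 stood far above the rest, and the lowest Vehicle library was still above the highest Aldara library. The log2 fold change was −2.04 (SE 0.47, adjusted p = 0.025), and −1.35 without Vehicle replicate 1 (adjusted p = 0.0158), where Arg1 measured −1.67 (adjusted p = 0.0531), whereas leaving out any 1 Aldara library ended the call (highest adjusted p = 0.0757).

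Fibroblast markers were also lower in Aldara. Of 5 such genes 4 fell and 0 rose, and the other, Pdgfra, measured −0.18 with the replicate block (adjusted p = 0.562). Their summed level was 52.2 to 109.2 CPM in Aldara libraries against 167.5 to 436.9 CPM in Vehicle libraries. This sum and Tgm2 were highest in Vehicle replicate 1, and Arg1 in Vehicle replicate 2 (55.5 CPM). Nothing on the source of either gene is read from the highest library. The part of fibroblasts in the falls of Arg1 and Tgm2 was not tested. Part of the Tgm2 transcript lies opposite Rprd1b and a predicted gene, and 18.8% of its 50-base windows recur in these, where reads without strand cannot be told apart.

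Levels were also set against the macrophage panel of the same library. Cd200r1 was at 9.18%, 9.56%, 8.68% and 10.1% of the panel level in Aldara libraries against 7%, 5.49%, 7.28% and 7.39% in Vehicle libraries, and its groups did not overlap. Chil3, apart in CPM, overlapped on this scale, at 0.568% to 2.75% in Aldara and 0% to 0.84% in Vehicle. Retnla measured 69.7%, 60.5%, 56.9% and 58.7% of the panel level in Aldara libraries, against 319.6%, 462.4%, 673% and 428.7% in Vehicle libraries. The Aldara libraries were nearly equal on this scale (61.4% ± 5.7), and the groups did not overlap. Ear2 was likewise even in Aldara, at 1.39%, 1.14%, 1.16% and 1.23%, against 5.79%, 16.2%, 14.8% and 6.77% in Vehicle. On this scale groups did not overlap for 7 of the 9 members, and for 75.4% of all tested genes, so the separation is read as no property of the members. Klf4, with no detectable difference in CPM, was among the 7, at 149.4% to 384% in Aldara and 480.2% to 951.7% in Vehicle. In bulk RNA, fewer cells of a type and less RNA per cell cannot be told apart, and this holds for the panel as well as for the members.

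With libraries scaled by the panel, edgeR gave log2 fold changes of −2.94 (SE 0.46, adjusted p = 2.1e-08) for Retnla and −3.15 (SE 0.49, adjusted p = 2.01e-08) for Ear2. Cd200r1 measured 0.46 on that scale (SE 0.45) and was not called (adjusted p = 0.305), and Chil3 measured 1.49 (adjusted p = 0.0117). Il4ra changed sign to −1.27 (adjusted p = 0.00424). This scaling centres the panel's own genes, so some must lie on either side. Fcgr1 fell (−1.30, adjusted p = 0.00342) and Itgb2 rose (1.10, adjusted p = 0.012). Aif1, also picked after its values were seen, rose as well (0.86, adjusted p = 0.0487). Ptprc (0.17, adjusted p = 0.681) and Csf1r (−0.65, adjusted p = 0.139) were not called. The panel genes thus did not all change alike, and values set against the panel do not give macrophage content. This scaling moved the median of all tested genes to −1.48 and called 90.4% of them as falling and 0.375% as rising, beside 7 members falling and 1, Chil3, rising of 9. Nearly all genes fell on this scale, and nothing is read from the members' falls. Relative to that median, Retnla stood at −1.46, Ear2 at −1.67, Arg1 at −1.61, Tgm2 at −2.23, Socs2 at −0.68, Klf4 at −0.08, Il4ra at 0.21, Cd200r1 at 1.95 and Chil3 at 2.97. Taking off the median largely undoes the panel scaling. These values thus restate the TMM result (Retnla −1.39 and Cd200r1 2.11 relative to the median there) and are no separate evidence.

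**Figure D2:**
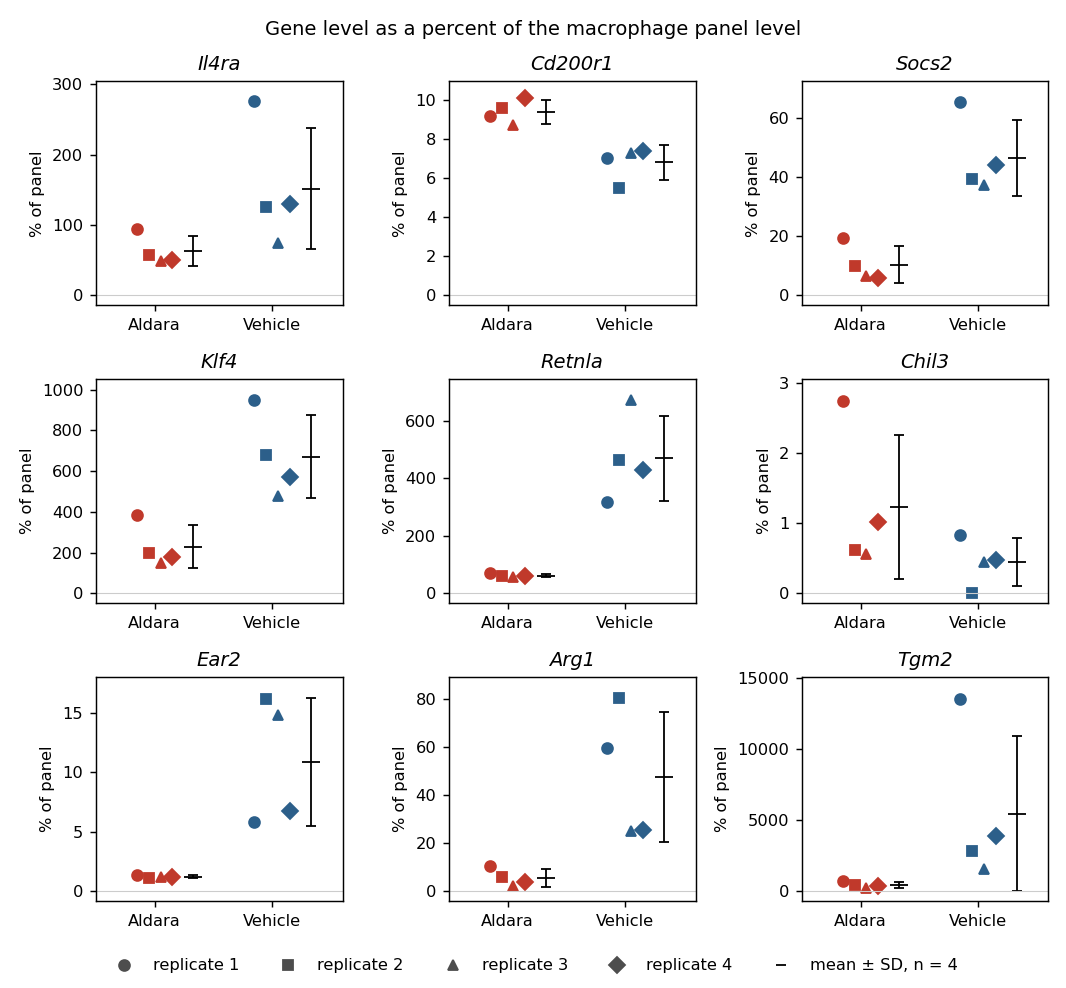
Level of each gene as a percent of the geometric mean of the 21-gene macrophage panel in the same library (linear axes), Aldara in red and Vehicle in blue, symbols for the replicate number, black bars for mean ± SD of 4 libraries. Retnla and Ear2 are nearly constant across the Aldara libraries at 61.4% and 1.23% on average and spread widely across the Vehicle libraries.

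**Figure D3:**
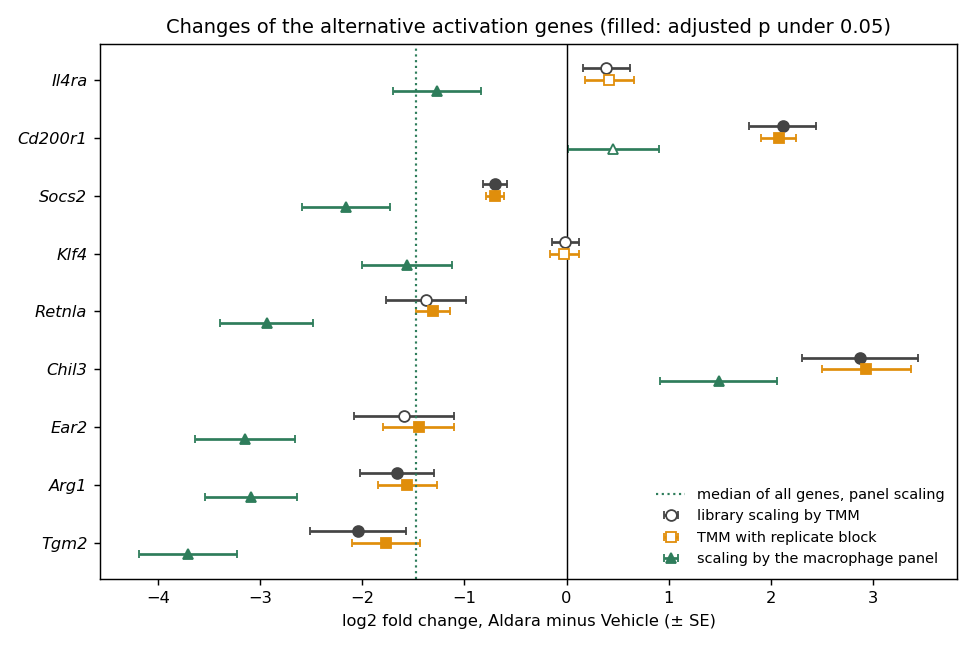
Log2 fold change, Aldara minus Vehicle, with its standard error for each gene under TMM scaling, TMM with the replicate block and scaling by the macrophage panel, filled where the adjusted p was under 0.05. The dotted line marks the median of all tested genes under panel scaling, −1.48, against which Cd200r1 and Chil3 stand to the right and Retnla, Ear2, Arg1 and Tgm2 to the left, while Il4ra changes sign between the scalings. Places relative to that line largely restate the TMM result.

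Levels of different genes were compared per length, in TPM, computed from the counts and the union of annotated exons. In Aldara libraries the order by median TPM was Retnla (782.5), Tgm2 (586.2), Klf4 (506), Il4ra (72.1), Cd200r1 (22.2), Arg1 (16.6), Ear2 (13.1), Socs2 (6.84) and Chil3 (4.77). In Vehicle libraries it was Retnla (1756), Tgm2 (1724), Klf4 (481.6), Il4ra (50.5), Arg1 and Ear2 (38 each), Socs2 (10.9), Cd200r1 (4.52) and Chil3 (0.741). Cd200r1 thus moved up the order in Aldara. Neighbours in the order overlapped between libraries in both groups for Retnla and Tgm2 and for Arg1 and Ear2, and in Aldara also for Tgm2 and Klf4, Cd200r1 and Arg1, Ear2 and Socs2, and Socs2 and Chil3. Il4ra and Ear2 overlapped in Vehicle. The places of Ear2 and Chil3 are uncertain, given the windows they share with other genes.

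The genes most like each member were sought by the root-mean-square difference in log2 CPM over the 8 libraries, after each gene was centred on its mean, among about 10951 genes with a mean of at least 5 CPM. Cd200r1 lay closest to C3ar1 (0.11) and Aoah (0.12). Retnla lay closest to another member, Ear2 (0.31), and then to Nlrp3 (0.33). Socs2 was nearest to Cryz and Ppa1 (0.10 each), Klf4 to Esrra (0.08) and Sh3bp1 (0.09), and Il4ra to Tmem176a (0.12) and Chsy1 (0.15). For Arg1 the nearest were Prom2 (0.29) and Kcnip3 (0.34), for Tgm2 Atp13a3 (0.29) and Aqp3 (0.30), for Ear2 after Retnla Nlrp3 (0.51), and for Chil3 Cd209g (0.87) and Cfd (0.92). Chil3 thus had no close match among these genes, but its 0 to 73 counts a library add noise to its distances. Apart from Retnla with Ear2, no member had another member as its nearest gene. These distances are descriptions over libraries that share the group difference.

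Other genes of the pathway were taken from lists of 89 genes, of which 67 were tested. Of these 5 rose and 9 fell, beside 6.98% rising and 3.86% falling of all tested genes. Their median log2 fold change was 0.06, beside 0.006 for all tested genes. With the replicate block the numbers were 12 and 11, beside 9.21% rising and 6.14% falling of all tested genes. Counts of single lists below stand beside the same shares and describe those lists only. The cytokines that start the program were scarce. Il4, named for its role, measured 1.97 ± 0.363 CPM in Aldara and 1.65 ± 0.196 CPM in Vehicle (adjusted p = 0.53), and Il13 had 11 counts over all libraries. Of 4 tested ligands and alarmins edgeR called 0, and 0 had an unadjusted p under 0.05. Il33, an alarmin released by damaged cells, was the most abundant of them at 68.7 ± 24.1 CPM in Aldara and 48 ± 21.9 CPM in Vehicle (adjusted p = 0.381, and 0.0113 with the replicate block). Against the panel scaling the signs of several pathway genes turned: Ptpn6 measured −0.38, Inpp5d −0.09, Egr2 −0.75, Grb2 −1.05, Jak3 −1.16, Klf2 −1.03, F13a1 −0.82, Cd163 −0.47 and Mrc1 −0.72 on the log2 scale, where the median of all genes was −1.48.

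Among receptor chains and signalling genes 2 of 9 rose and 0 fell, with a median of 0.22. Grb2, an adaptor of receptor kinases, measured 153.9 ± 30.3 CPM in Aldara and 106.8 ± 8.08 CPM in Vehicle (log2 fold change 0.53, SE 0.13, adjusted p = 0.0295). Jak3, the kinase bound to the common gamma chain, measured 96.9 ± 3.29 CPM in Aldara and 76.1 ± 9.85 CPM in Vehicle (0.35, SE 0.10, adjusted p = 0.0473), and this call ended when any 1 of the 8 libraries was left out (highest adjusted p = 0.12) and under upper-quartile scaling (adjusted p = 0.0673). The call on Grb2 was lost without Aldara replicate 3 or 4 or Vehicle replicate 1, 2 or 4 (highest adjusted p = 0.1). Stat6 itself, named for its role, had 193.2 ± 11.4 CPM in Aldara and 162 ± 5.15 CPM in Vehicle, with groups that did not overlap, and did not pass (log2 fold change 0.25, adjusted p = 0.066).

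Inhibitors of signalling were split, with 2 of 9 risen and 1 fallen and a median of 0.06. Ptpn6, the phosphatase SHP-1, rose by 1.30 (SE 0.23, adjusted p = 0.0102) and Inpp5d, the lipid phosphatase SHIP-1, by 1.58 (SE 0.30, adjusted p = 0.0115). Socs3, which restrains signals of the interleukin 6 family, fell as Socs2 did, at 515.7 ± 104.1 CPM in Aldara and 841.7 ± 124.5 CPM in Vehicle (log2 fold change −0.71, SE 0.16, adjusted p = 0.0169), and did not pass when Vehicle replicate 2 was left out (adjusted p = 0.0518). The remaining tested members of the family, Socs1, Socs4, Socs5, Socs6, Socs7 and Cish, did not pass.

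Of 12 transcription factors Egr2, an early target of interleukin 4 signals, rose and 0 fell, with a median of 0.09. It measured 142.5 ± 38 CPM in Aldara and 80.9 ± 11.6 CPM in Vehicle (log2 fold change 0.82, SE 0.19, adjusted p = 0.0221). The same 5 left-out libraries as for Grb2 each ended that call (highest adjusted p = 0.0725). With the replicate block 3 of the 12 rose. Irf4, which takes part in the program in mouse macrophages, was 1 of them, at 23.9 ± 10.6 CPM in Aldara and 13.2 ± 2.48 CPM in Vehicle (adjusted p = 0.122, and 0.0381 with the replicate block), and was picked after its values were seen, as was Klf2 (0.51, adjusted p = 0.0944, and 0.0479 with the replicate block).

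Other effectors divided by gene. Of 13 tested, 0 rose and 4 fell, with a median of −0.33, and with the replicate block 3 rose and 6 fell. Mgl2, a C-type lectin, measured 4.73 ± 1.86 CPM in Aldara and 65 ± 15.5 CPM in Vehicle (log2 fold change −3.79, SE 0.29, adjusted p = 0.000794). Alox15, a lipoxygenase induced by interleukin 4, fell to 2.15 ± 0.655 CPM in Aldara, against 11.9 ± 7.79 CPM in Vehicle (log2 fold change −2.45, SE 0.48, adjusted p = 0.0138), and did not pass when Aldara replicate 4 was left out (adjusted p = 0.0543). Mmp12, the macrophage elastase, fell by 2.93 on the log2 scale (SE 0.60, adjusted p = 0.0131). Its levels were low, at 0.333 ± 0.232 CPM (30 counts) in Aldara and 2.56 ± 1.77 CPM (271 counts) in Vehicle. Cd209a, a lectin of dendritic cells and some macrophages, fell by 1.95 (SE 0.26, adjusted p = 0.00232). Mrc1, the mannose receptor CD206 and picked after its values were seen, did not pass, at 595 ± 226.5 CPM in Aldara and 308.9 ± 47.4 CPM in Vehicle (log2 fold change 0.95, SE 0.27, adjusted p = 0.0546, and 0.0102 with the replicate block). Among genes also picked after their values were seen, the block also brought past the threshold the chemokines Ccl24 (−0.93, adjusted p = 0.000815) and Ccl8 (−0.79, adjusted p = 0.00866), the scavenger receptor Cd163 (1.12, adjusted p = 0.0137) and the coagulation factor gene F13a1 (0.77, adjusted p = 0.0258).

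Arginine and polyamine genes next to Arg1 held 0 risen and 2 fallen of 12, with a median of −0.10. Arg2, the mitochondrial arginase, fell to 42.8 ± 6.95 CPM in Aldara, against 85.9 ± 21.6 CPM in Vehicle (log2 fold change −1.01, SE 0.19, adjusted p = 0.0101). Srm, spermidine synthase, fell by 0.40 (SE 0.10, adjusted p = 0.0307), which ended without Aldara replicate 1, 2 or 3 or Vehicle replicate 1 or 4 (highest adjusted p = 0.0894). Nos2, which competes with arginase for arginine and was picked after its values were seen, measured 1.21 ± 0.44 CPM in Aldara and 0.848 ± 0.0728 CPM in Vehicle (adjusted p = 0.331).

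Paralogs of the secreted members were mostly scarce or did not pass the test. Chil1, a chitinase-like protein also made by epithelium, measured 135 ± 26.8 CPM in Aldara and 105.1 ± 25.5 CPM in Vehicle (log2 fold change 0.36, adjusted p = 0.246, and 0.0452 with the replicate block). Chil5, Chit1 and Chia1 had between 39 and 72 counts over all libraries and were not tested. Retn, resistin, measured 0.996 ± 0.568 CPM in Aldara and 0.284 ± 0.21 CPM in Vehicle (adjusted p = 0.0787), and Retnlg had 13 counts in Aldara and 0 in Vehicle. Rnase4 (36.1 ± 12.5 CPM in Aldara, 42.8 ± 15.1 CPM in Vehicle, adjusted p = 0.651) and Rnase6 (1.72 ± 0.65 CPM in Aldara, 2.7 ± 0.914 CPM in Vehicle, adjusted p = 0.258), ribonucleases of the same superfamily as Ear2, did not pass. Among transglutaminases Tgm1, the keratinocyte enzyme, fell with Tgm2 but by less, to 44.7 ± 3.6 CPM in Aldara, against 73.8 ± 7.57 CPM in Vehicle (log2 fold change −0.72, SE 0.10, adjusted p = 0.00227). Tgm4 measured 1.07 ± 0.499 CPM in Aldara and 1.15 ± 0.496 CPM in Vehicle (adjusted p = 0.931), and Tgm3 and Tgm5 had 39 and 67 counts. Cd200r3 had 33 counts over all libraries.

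**Figure D4:**
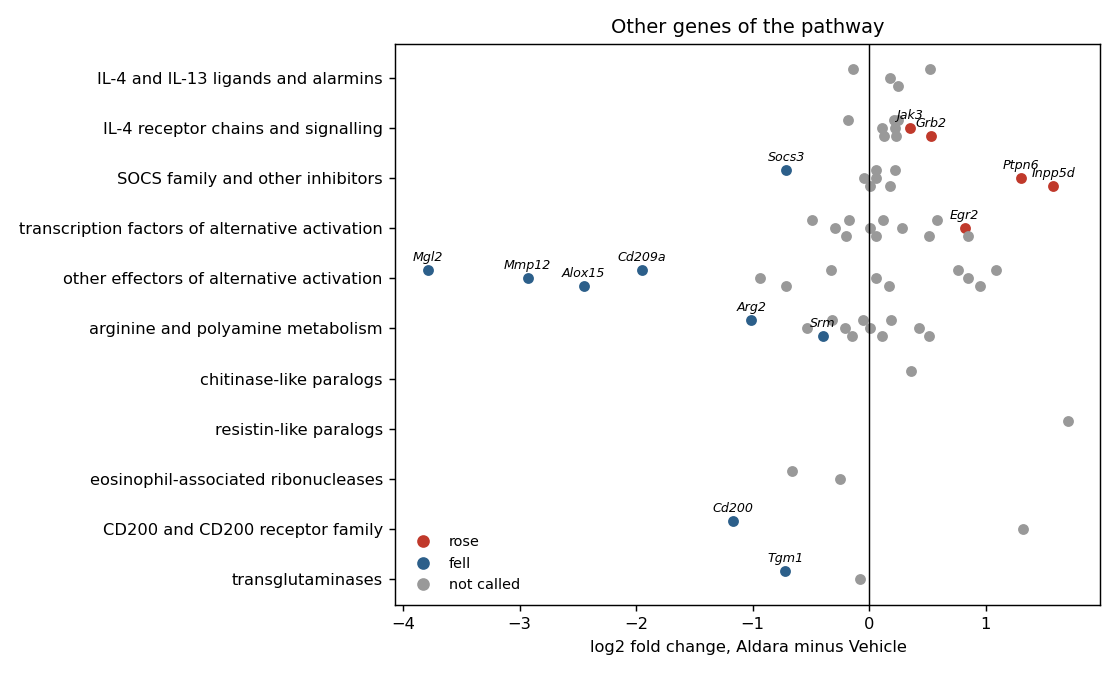
Log2 fold change, Aldara minus Vehicle, of each tested gene of the pathway lists under TMM scaling, 1 point per gene, red where it rose, blue where it fell and grey where it did not pass. Of 67 genes 5 rose and 9 fell, beside 6.98% rising and 3.86% falling of all tested genes. The largest falls are those of Mgl2, Mmp12, Alox15 and Cd209a among the effectors.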

How the data were processed

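RNA was amplified with a SMARTer ultra-low-input kit, per the labels' protocols, which does not mark strand. The values deposited by the authors are raw whole-number counts, 1 column for each of 8 libraries. The tools named by the submitters' processing notes are featureCounts 1.5.0-p3, HISAT2 2.0.5 and DESeq2, the build is mm10, and the options of counting are not given. Symbols and exon lengths came from GENCODE M21, which named 52125 of 56748 identifiers.

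Counts were tested with edgeR 4.0.16 in R 4.3.3: filterByExpr, TMM factors, the robust quasi-likelihood F test of 4 Aldara against 4 Vehicle libraries, and Benjamini-Hochberg adjustment over all 16780 tested genes. All adjusted p-values come from edgeR unless another tool is named, SEs from its F statistic, and levels are TMM-scaled CPM, where 1 count is worth 0.0282 to 0.0532. DESeq2 1.42.0, voom in limma 3.58.1, other scalings and filters, and leaving out libraries were alternatives. No pair of libraries was a duplicate (lowest chi-square per degree of freedom within a group 20.2).

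Same-numbered libraries of the 2 groups deviated together from their group means (r = 0.228, 0.108, 0.167 and 0.218 across genes for numbers 1 to 4, against −0.216 to 0.082 for other pairs), so the numbers were taken as pairing the libraries and values with the replicate block are given where they change the call of a gene named in the text. The members, the lists and the tests were chosen with earlier results of these data known. Named genes are the members, up to 4 called genes per list in each direction by p (otherwise the most abundant), paralogs with at least 10 counts, the 2 nearest genes of each member, and those said to be picked for their role or after their values were seen.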

Additional observations from a re-analysis of the deposited data

Results flagged for a closer look

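In 74 groups of 4 libraries (37 named genes, each in Aldara and in Vehicle), 6 libraries lay farther from the nearest other library than Dixon's 95% limit allows, and chance flags about 1 in 20 groups. None of the 9 members was among them. Cd209a was low in Aldara replicate 1 (0.897 CPM). In Vehicle replicate 1, Chil1 was high (143.3 CPM), and so was Cd200r3 (0.563 CPM). In Vehicle replicate 3, Jak3 was low (61.3 CPM), and Tgm3 (0.932 CPM) and Tgm5 (0.819 CPM) were high. The last 2 genes and Cd200r3 rest on few counts.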

How the results depend on the processing

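Of 162 recomputed member changes over 18 alternatives, 131 kept their direction and side of the threshold, 14 came to pass it, 12 ceased to pass it and 5 changed sign. With TMM 2 members rose and 3 fell. Scaling by the macrophage panel gave 1 and 7 (63 and 15164 over all genes). The replicate block and DESeq2 each gave 5 falling members, with 1030 and 1154 falling genes, and upper-quartile factors gave 990. Without a filter on low counts 1 member fell. Leaving out 1 library at a time gave 629 to 1405 rising and 323 to 664 falling genes, 2 rising members throughout and 1 to 4 falling members. Sign changes were those of Il4ra with the panel (−1.27) and of Klf4, whose log2 fold change was near 0, without 1 library (−0.12 to 0.09) and without replicate 1 of both groups (0.03), a setting chosen after the data were seen. Retnla and Ear2 passed with DESeq2 (adjusted p = 0.0245 and 0.00289), and Retnla also with upper-quartile factors (0.0494) or a filter at a mean of 1 CPM (0.0443). With 1 library left out each passed in 1 of 8 tests, that without Vehicle replicate 1 (adjusted p = 0.0346 and 0.0303). Both also passed without replicate 1 of both groups (adjusted p = 0.0211 and 0.0264). The replicate block changed no other member's call. The cause of these differences was not tested. Depth limits Chil3 most, with 0 to 73 counts a library.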

Other observations

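Other cell types that a fat pad digest can hold were checked by their markers. Monocyte markers held 0 risen and 1 fallen of 3 tested, with a summed level of 34.5 to 57.1 CPM in Aldara libraries and 57.7 to 89.9 CPM in Vehicle libraries. Endothelial markers held 0 called of 5 by edgeR (0 at an unadjusted p under 0.05), at 186.8 to 349.2 CPM in Aldara and 213.3 to 333.8 CPM in Vehicle. Mast cell and basophil markers summed to 0.438 to 1.2 CPM in Aldara and 0 to 1.19 CPM in Vehicle, and none was tested. Dendritic cell markers held 0 called of 2 tested by edgeR (1 at an unadjusted p under 0.05), at 5.9 to 7.93 CPM in Aldara and 5.2 to 7.63 CPM in Vehicle. Markers of T cells and innate lymphoid cells, whose sum is nearly all Gata3 and Rora, lay at 182.3 to 291.9 CPM in Aldara and 239.2 to 330.2 CPM in Vehicle, with 1 of 4 tested fallen. That gene, Il1rl1, measured 2.08 ± 1.02 CPM in Aldara and 4.99 ± 1.48 CPM in Vehicle (adjusted p = 0.0458), passed in 2 of 8 tests with 1 library left out (highest adjusted p = 0.117) and did not pass with the replicate block (adjusted p = 0.075). Of 5 adipocyte markers 2 rose and 0 fell, while their sum was 89.8 to 185.6 CPM in Aldara and 131.4 to 188.6 CPM in Vehicle. Of the 2 that rose, Adipoq had 114 counts in Aldara and 61 in Vehicle (adjusted p = 0.0356). It passed in 1 of 8 tests with 1 library left out (highest adjusted p = 0.0954). The other, Cidec, passed in all 8 such tests (log2 fold change 1.87 to 2.45, highest adjusted p = 0.0262). Both were picked after their values were seen.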
